A study of Mus musculus with 21 samples.

Results

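The comparison described here set the DNA binding of CREB1 on probes carrying 5-hydroxymethylcytosine (5hmC) against its binding on the same probes with ordinary cytosine (C). It used 4 of the 21 protein binding microarrays of the study: 2 of CREB1 on 5hmC and 2 of CREB1 on C, and every 8-base sequence (8-mer) that at least 1 probe carries, 65126 of the 65535 in the deposited matrix. The protein was the bZIP DNA-binding domain of wild-type mouse CREB1 with an N-terminal GST tag, expressed from plasmid by in vitro transcription and translation, so only the isolated domain was measured. A probe's second strand was made by primer extension on the array with C, 5hmC or 5-methylcytosine (5mC), which leaves the modified base on the synthesised strand alone and plain cytosine on the printed strand. For contrast, 1 array of CREB1 on 5mC, 4 arrays of the point mutant CREB1(A297V) on 5hmC with 2 on C, and 2 arrays of the point mutant CEBPB(V285A) on 5hmC with 2 on C were used. The shared fit also held arrays of CEBPB on 5hmC and of both mutants on 5mC.

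CREB1 is a basic leucine zipper (bZIP) transcription factor that binds DNA as a dimer, each basic region reading one half-site in the major groove. Its best-known target is the cAMP response element (CRE), a palindrome of GTCA half-sites with a CpG at its centre. The related C/EBP factors prefer the half-site GCAA and the PAR factors GTAA, and a joined site of a CRE-like left part and a GCAA half-site is known as the C/EBP-ATF composite site. 5hmC is made from 5mC by TET enzymes, and adds a polar hydroxymethyl group to the major-groove edge of the base.

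The sites on which the results turn are given as the synthesised strand from 5′ to 3′, so that every capital C is 5hmC on the 5hmC arrays and lower-case bases are unmodified. The CRE palindrome carries 2 modified bases, the CRE half-site between G and TA carries 1 or 3 according to the strand that was synthesised, and the composite site carries 1.
CRE palindrome: tgaCgtCa
CRE half-site between G and TA: gtgaCgta
its reverse complement: taCgtCaC
composite site: tgatgCaa
its reverse complement: ttgCatCa
CRE and C/EBP hybrid: tgaCgCaa
its reverse complement: ttgCgtCa
CRE and PAR hybrid: tgaCgtaa
its reverse complement: ttaCgtCa
C/EBP half-site joined to TA: aCgCaata
composite left part with a PAR half-site: tgatgtaa
Which strand an 8-mer names was read from the data: deposited Z-scores correlated with medians of the probe intensities by 8-mer at r of 0.944 to 0.979 on the 4 arrays when the deposited name was taken as the printed sequence read backwards, and at no more than 0.747 under any other reading. That the printed strand is the template rests on the constant linker that follows each printed sequence and was not tested. If it were the synthesised strand, every asymmetry between strands below would change sides.

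The deposited value is a Z-score per 8-mer and array, made by the authors, which is near 0 for a typical 8-mer and measures relative preference within an array rather than affinity. Replicates correlated across 8-mers at r = 0.959 on 5hmC and 0.937 on C, whereas arrays of different cytosine forms correlated at 0.421 to 0.456. The median probe intensity was 1407 and 1545 on the 5hmC arrays, against 1235 and 1517 on the C arrays, over local backgrounds of 266 and 264 on 5hmC and 221 and 444 on C. At most 17 of the 40330 probes of an array reached the top of the scale. The 5hmC arrays bear another array number in their file names than the C arrays, so array and cytosine form cannot be told apart. No label says that replicate arrays used separate protein preparations, so p-values measure only the spread between arrays of a group. That spread was pooled in the shared fit over all arrays of the study, including those of other proteins. A difference can thus miss the threshold although its own replicates lie close together. For the C/EBP palindrome TTGCGCAA the standard error was 12.2, with SDs of 1.07 on the 5hmC arrays and 0.12 on the C arrays. An exact permutation test of 2 arrays against 2 cannot go below p = 0.333.

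On 5hmC the preference of CREB1 moved away from CRE half-sites whose outer and central cytosines were both modified. It also moved away from most 8-mers beginning with TGACGT, although with asinh-transformed Z-scores only 5 of the 64 beginning with TGACG fell. It moved toward sequences with TGATG and toward C/EBP half-sites after T, and less often after a CpG cytosine. In a limma fit over all 21 arrays, 6492 of the 65126 8-mers passed an adjusted p of 0.05 (9.97%), of which 2855 were higher on 5hmC (4.38% of all tested) and 3637 were lower (5.58%). With any 1 of the 4 arrays left out, between 1415 and 2044 8-mers passed: 1428 without the first and 1415 without the second 5hmC array, and 2044 without the first and 1999 without the second C array. The median difference over all 8-mers was -0.0049 Z-score units, and the median size of a called difference was 2.32. Groups did not overlap in 2854 of the 2855 higher calls and in 3637 of the 3637 lower calls, against 46207 of all 65126 8-mers.

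Large changes were concentrated in few sequence families. Of the 294 8-mers called higher by at least 5 Z-score units, 113 (38.4%) held GCAA, 91 (31.0%) held TGATG and none held CGTCA. GCAA was present in 1.96% and TGATG in 0.392% of all 8-mers tested. Of the 312 called lower by at least 5 units, 148 (47.4%) held CGTCA and 267 (85.6%) held a CG, against 0.392% and 38.2% of all 8-mers tested. ACGT was held by 150 of the 312 (48.1%), against 1.96% of all 8-mers tested. None of those 312 held GCAA or TGATG. These shares describe overlapping 8-mers that share probes and carry no test of their own.

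**Figure D1:**
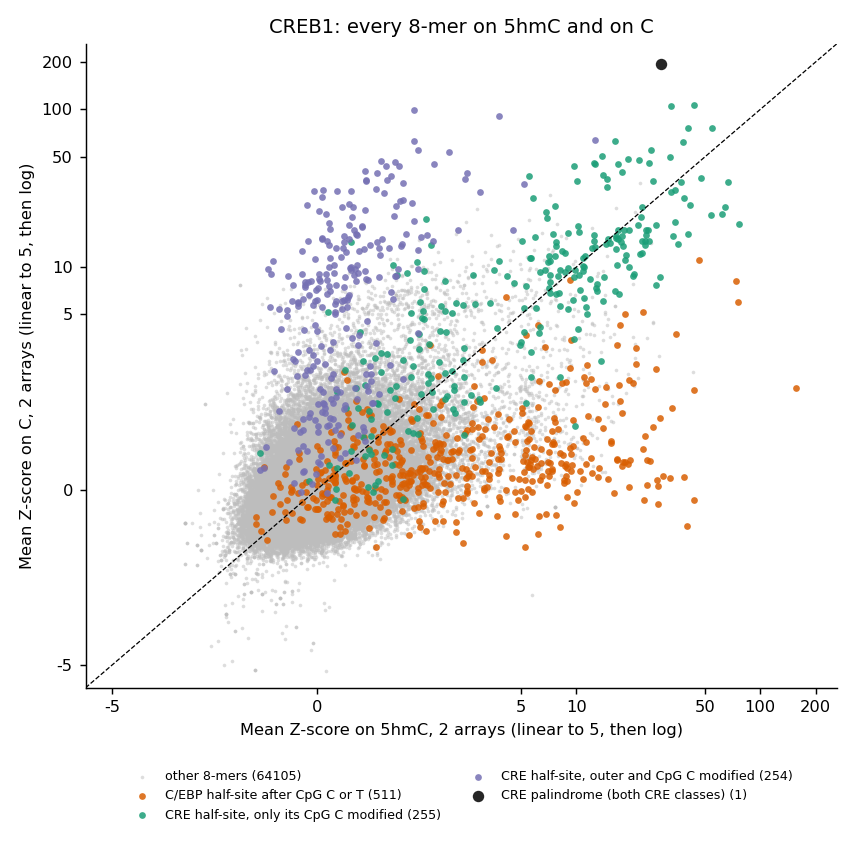
Mean Z-score of each of 65126 8-mers on the 2 CREB1 5hmC arrays (x axis) and on the 2 CREB1 C arrays (y axis), linear up to 5 and logarithmic beyond, with the line of equality dashed. The 254 8-mers with CGTCA lie mostly along the y axis and those with a C/EBP half-site spread along the x axis, while the 255 with TGACG lie on both sides of the line; the CRE palindrome is at 28.8 on 5hmC and 195 on C.

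The CRE palindrome TGACGTCA, the strongest 8-mer on C, lost most of its Z-score. It measured 19.1 and 38.5 on the 5hmC arrays, against 213 and 177 on the C arrays, and was rank 35 on 5hmC and rank 1 on C. The groups were far apart, and the difference was -166 ± 13.9 (SE; limma adjusted p = 1.36e-07), the largest fall of all 8-mers. Leaving out each of the 4 arrays in turn gave falls between -184 and -149.

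The 8-mers that end in CGTCA fell together. In the 63 tested 8-mers that end in CGTCA, where the central CpG cytosine and the outer cytosine of the half-site are both modified, the median Z-score was 0.467 on 5hmC and 5.81 on C, and 54 fell while none rose. The background over all 8-mers was 5.58% called lower, and 85.7% of these members were. Apart from the palindrome, none of the 62 members had a mean above 5 on 5hmC (the highest was 4.00), whereas 36 did on C. With an A before the core, as in the full CRE core ACGTCA, all 16 members fell, with medians of 1.64 on 5hmC and 30.5 on C. The median difference there was -27.8. With C, G or T before the core, 13 of 15, 13 of 16 and 12 of 16 fell, and the median differences were -2.90, -6.15 and -3.74.

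TACGTCAC showed the CGTCA strand at its clearest. It measured 2.78 and 1.96 on 5hmC, against 106 and 93.2 on C, a difference of -97.3 ± 10.4 (SE; limma adjusted p = 3.32e-06), and its rank was 3242 on 5hmC and 4 on C. TTACGTCA, a PAR half-site joined to a CRE half-site, measured 2.98 and 3.49 on 5hmC and 48.2 and 59.7 on C (limma adjusted p = 0.00882). That call was lost without the second C array (-44.9, limma adjusted p = 0.0779), without the first 5hmC array (-50.4, 0.0951) and without the second 5hmC array (-50.9, 0.0924), and after quantile normalization (-42.7, 0.0638). The remaining named falls on that strand, ACGTCATC, CAACGTCA, TGCGTCAT, CCACGTCA, ACGTCAGA, CGTCACGG, CGTCATCG and CGTCATAA, had means between 0.120 and 3.62 on 5hmC and between 24.2 and 54.9 on C. Each was at 4.10 or less on both 5hmC arrays and at 18.3 or more on both C arrays, and limma adjusted p lay between 9.84e-09 for ACGTCAGA and 0.00247 for ACGTCATC.

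When the other strand of these sites was synthesised, the 8-mers differed by the base that follows the core. The 64 8-mers that begin with TGACG, where only the CpG cytosine of the half-site is modified and the outer C:G pair has its C on the printed strand, had a median of 6.94 on 5hmC and 7.25 on C. Of these, 11 rose (17.2%, beside 4.38% of all 8-mers), 18 fell (28.1%, beside 5.58%) and 35 did not pass. Without the palindrome, 43 of 63 had a mean above 5 on 5hmC, and 43 of 63 did on C. With asinh-transformed Z-scores, which weigh high values less, 2 rose and 5 fell. Split by the base after the core, 13 of the 16 TGACGT members fell and none rose, with medians of 7.25 on 5hmC and 21.4 on C and a median difference of -14.5, whereas after TGACG the bases A, C and G together gave 11 rises and 5 falls.
GTGACGTA, the reverse complement of TACGTCAC, measured 37.2 and 50.4 on 5hmC, against 88.1 and 126 on C (limma adjusted p = 0.00411). It was rank 12 on 5hmC and rank 2 on C. Its call was lost without the second C array (-44.3, limma adjusted p = 0.0516), without the first 5hmC array (-56.7, 0.073), after quantile normalization (-45.4, 0.0724) and on the asinh scale (0.0922). TGACGTAA measured 52.6 and 56.8 on 5hmC and 69.3 and 83.8 on C. Both 5hmC arrays lay below both C arrays, but the difference of -21.8 ± 22.9 (SE) did not pass (limma adjusted p = 0.593). TGACGTGG measured 21.4 and 16.9 on 5hmC, against 40.1 and 57.4 on C (limma adjusted p = 0.00411). This fall also lost its call without the second C array (-21.0, limma adjusted p = 0.0686), without the second 5hmC array (-27.4, 0.0644) and on the asinh scale (0.0795). TATGACGT, at 41.9 and 39.1 on 5hmC and 68.2 and 85.0 on C, did not pass (limma adjusted p = 0.165), but passed without either of the CEBPB(V285A) C arrays (0.00173 and 0.00696). GCGTGACG and GCTGACGT were the other named falls with TGACG, with means of 14.6 and 10.1 on 5hmC and of 36.3 and 35.2 on C (limma adjusted p = 0.00169 and 0.00127). Neither passed on the asinh scale (0.362 and 0.0513).

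Some sequences with TGACG and no T after it among the named bases were higher on 5hmC. CGATGACG and TGGTGACG end in TGACG, so the base that follows is not fixed by the name and can be T. GCGTGACG also ends in TGACG, and it fell. CGATGACG measured 53.0 and 70.5 on 5hmC, against 18.8 and 24.4 on C, a rise of 40.1 ± 5.99 (SE; limma adjusted p = 0.000208). TATGACGC measured 55.6 and 52.3 on 5hmC and 14.7 and 27.9 on C (adjusted p = 0.00156), and ATGACGGT 24.0 and 33.0 on 5hmC and 6.16 and 11.1 on C (limma adjusted p = 9.24e-06). In each the lower 5hmC array was above the higher C array. On the asinh scale these 3 rises did not pass, with limma adjusted p of 0.216, 0.189 and 0.134. GATGACGC, at 65.7 and 68.6 on 5hmC and 30.5 and 38.3 on C, rose in the fit of Z-scores (limma adjusted p = 0.0117). It lost its call without the first C array (28.8, limma adjusted p = 0.0969), without the second 5hmC array (31.3, 0.0649), on the asinh scale (0.385) and after normexp correction (0.0868). In CGTGACGC, at 35.0 and 39.1 on 5hmC and 26.1 and 42.7 on C, and in TGGTGACG, at 32.4 and 36.5 on 5hmC and 26.6 and 35.4 on C, the groups overlapped (limma adjusted p = 0.812 and 0.651). The sign of both differences turned without the first C array, at -5.68 for CGTGACGC and -0.893 for TGGTGACG.

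The highest 8-mer on 5hmC was the composite site TGATGCAA, which had a low but positive Z-score on C. It measured 141 and 171 on 5hmC, against 1.69 and 4.10 on C, and its rank was 1 on 5hmC and 2255 on C. The rise of 153 ± 9.97 (SE; limma adjusted p = 4.97e-09) was the largest of all 8-mers, and lay between 139 and 168 with each of the 4 arrays left out in turn. Its reverse complement TTGCATCA, the same double-stranded site with 2 modified cytosines on the other strand, measured 1.26 and 1.52 on 5hmC and 2.44 and 2.58 on C, and did not pass (limma adjusted p = 0.479). The high Z-score on 5hmC was thus measured with 1 of the strands synthesised and not with the other.

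Among 8-mers with a C/EBP half-site, many of those with a T before it rose, and the highest medians were those with an A before the TG or CG step. Of the 64 8-mers ending in TGCAA, 32 rose and none fell, with medians of 3.24 on 5hmC and 0.480 on C. Over all 8-mers tested, 4.38% were called higher. Within these, the 16 ending in ATGCAA had medians of 11.8 on 5hmC and 0.655 on C and 11 rose, and the 48 with another base there had medians of 2.72 and 0.426 in the same order and 21 rose. CCATGCAA measured 28.0 and 27.7 on 5hmC, against 0.204 and -0.0213 on C (limma adjusted p = 4.97e-09), and ATGCAATA 39.8 and 47.1 on 5hmC, against -0.0662 and -0.531 on C (adjusted p = 3.41e-05). Their means on C were 0.0912 for CCATGCAA and -0.298 for ATGCAATA, where the median of all 8-mers was 0.0052. ATGCAACG measured 30.3 and 26.4 on 5hmC and 1.69 and 2.39 on C (limma adjusted p = 2.97e-05). The reverse complements TTGCANNN had medians of 0.816 on 5hmC and -0.0841 on C, with 12 of 64 higher (18.8%) and none lower. The largest rise among those was TTGCAATA, a list example outside the naming rule, at 22.1 and 26.5 on 5hmC and -0.210 and 0.484 on C. It also holds TGCAA on the modified strand.

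The same half-site after a modified CpG cytosine rose in a minority of its 8-mers. The 64 8-mers ending in CGCAA had medians of 1.70 on 5hmC and 0.663 on C, and 8 rose and none fell (12.5% called higher). On the asinh scale 18 rose and 1 fell. The 16 ending in ACGCAA had medians of 10.7 on 5hmC and 3.00 on C and 5 rose, 9 on the asinh scale. ACGCAATA measured 68.1 and 83.1 on 5hmC, against 4.88 and 7.10 on C, a rise of 69.6 ± 13.4 (SE; limma adjusted p = 0.00242) that missed the threshold without the second 5hmC array (62.1, adjusted p = 0.0603). The CRE and C/EBP hybrid TGACGCAA measured 70.1 and 82.8 on 5hmC, against 16.8 and 20.4 on C, and was rank 2 on 5hmC and rank 95 on C. This rise of 57.8 ± 11.6 (SE; limma adjusted p = 0.00331) also lost its call without the second 5hmC array (51.5, adjusted p = 0.0896). TTACGCAA, a PAR half-site joined to the C/EBP half-site, measured 48.3 and 44.2 on 5hmC and 10.2 and 11.9 on C, which did not pass (limma adjusted p = 0.204), although it passed on the asinh scale (9.52e-05), after quantile normalization (0.012) and without either of the CEBPB(V285A) 5hmC arrays (9.58e-05 and 2.96e-05). The C/EBP palindrome TTGCGCAA measured 8.85 and 10.4 on 5hmC and 1.90 and 2.06 on C, and did not pass either (limma adjusted p = 0.748, but 0.00295 on the asinh scale and 0.000752 with the 4 arrays alone). TTGCGTAA, at 3.69 and 3.05 on 5hmC and 4.46 and 5.66 on C, did not pass (limma adjusted p = 0.931).

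With A or G before GCAA the counts of rises were near the background of 4.38%, and with A the share of falls was above its background of 5.58%. Among 64 8-mers ending in AGCAA 2 rose (3.12%) and 8 fell (12.5%), and among 64 ending in GGCAA 3 rose (4.69%) and 3 fell (4.69%). The reverse complements of the CpG form, TTGCGNNN, had 1 rise and 2 falls among 64, with medians of 0.450 on 5hmC and 0.108 on C. One of the falls was TTGCGTCA, the reverse complement of the CRE and C/EBP hybrid, at 1.24 and 0.982 on 5hmC and 12.4 and 23.4 on C (limma adjusted p = 0.019). It lost its call without the second C array (-11.3, limma adjusted p = 0.219), the first 5hmC array (-16.9, 0.135) or the second 5hmC array (-16.7, 0.141).

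The medians of the site lists on each array are plotted next, and the replicates lay closer to each other than to the other cytosine form in the CGTCA list and in all 4 C/EBP lists shown.

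**Figure D2:**
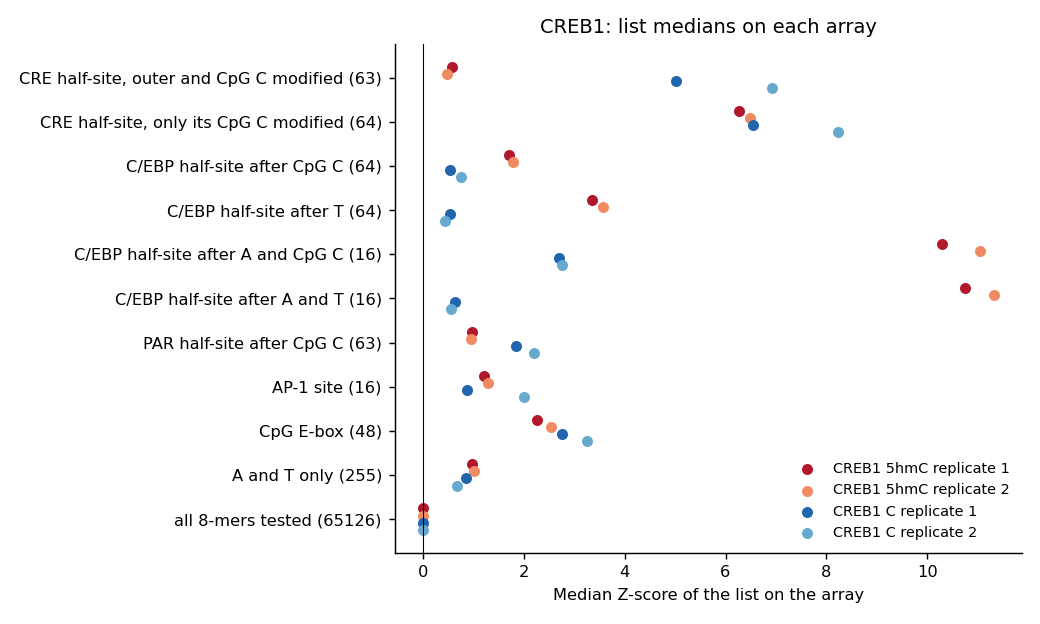
Median Z-score of each list (x axis) on each of the 2 CREB1 5hmC arrays (red) and the 2 CREB1 C arrays (blue), 1 point per array, with the number of 8-mers tested in brackets. The list with the outer and the CpG cytosine modified is at 0.575 and 0.481 on 5hmC and at 5.02 and 6.92 on C, and the C/EBP half-site after A and T is at 10.7 and 11.3 on 5hmC and at 0.632 and 0.552 on C.

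The lists with a PAR half-site next to a CpG cytosine held falls and no rise, beside 5.58% of all 8-mers called lower and 4.38% called higher. Of 63 8-mers ending in CGTAA 9 fell (14.3%) and none rose, with medians of 0.882 on 5hmC and 1.91 on C, and of 64 beginning with TTACG 11 fell (17.2%) and none rose. The median difference of the TTACG list was -0.246 but turned to 0.0350 with Z-scores recomputed from the intensities and to 0.0648 after normexp background correction. The PAR palindrome TTACGTAA measured 20.3 and 24.2 on 5hmC and 30.3 and 37.6 on C, and did not pass (limma adjusted p = 0.342). ATTACGTA fell, at 7.89 and 6.49 on 5hmC and 25.3 and 31.9 on C (limma adjusted p = 0.0427), a call close to the threshold that was lost with any 1 of the 4 arrays left out (limma adjusted p of 0.0926 without the first and 0.218 without the second C array, and 0.198 without the first and 0.23 without the second 5hmC array).

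The TGATG sequence that forms the left part of the composite site rose in other contexts as well. This list was chosen after its values were seen and has no test as a list. Of the 64 8-mers that begin with TGATG, 45 were called higher (70.3%, beside 4.38% of all 8-mers) and none lower, with medians of 3.85 on 5hmC and 1.06 on C. On the asinh scale 28 were higher and none lower. Their reverse complements NNNCATCA went the other way, with 10 of 63 lower (15.9%, beside 5.58% of all 8-mers) and none higher, and medians of 0.493 on 5hmC and 1.03 on C. Several of the risen 8-mers hold no C at all on the modified strand. TGATGTAA measured 28.3 and 23.8 on 5hmC, against 3.79 and 5.75 on C (limma adjusted p = 0.00729), and GTGATGTA 19.0 and 36.9 on 5hmC, against 3.15 and 4.46 on C (limma adjusted p = 2.71e-05). ATGATGAT measured 19.1 and 22.3 on 5hmC and 1.86 and 4.04 on C (limma adjusted p = 4.97e-09). For each of them the groups were well apart. Their reverse complements TTACATCA, TACATCAC and ATCATCAT had means of 0.549, 0.806 and 0.0830 on 5hmC and of 4.43, 3.23 and 1.44 on C, none of which passed. The neighbour TGATGTCA, which ends in the CRE half-site, measured 6.69 and 6.58 on 5hmC and 7.15 and 14.9 on C (limma adjusted p = 0.254).

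CRE half-sites without the CpG had counts below or near the background. Among the 64 8-mers ending in TGTCA, which keep the outer cytosine of the CRE half-site but have T in place of the CpG cytosine, 2 rose (3.12%) and 2 fell (3.12%), with medians of 1.39 on 5hmC and 1.54 on C. Among their reverse complements TGACANNN, 4 rose (6.25%) and 3 fell (4.69%). The fall of TGACATCA, also the reverse complement of TGATGTCA, was among these, at 4.64 and 6.40 on 5hmC and 18.1 and 21.7 on C (limma adjusted p = 0.0312). AP-1 sites, which differ from the CRE by 1 lost base pair at the centre, had no rise and 1 fall among 16 (6.25%). CpG E-boxes, the CACGTG sites of other leucine zipper and helix-loop-helix factors, had 2 rises (4.17%, beside 4.38% of all 8-mers) and 6 falls (12.5%, beside 5.58%) among 48, and on the asinh scale none passed either way.

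Calls were not limited to 8-mers with a modified base, but a probe that carries an 8-mer without C can hold modified cytosines outside it. Of the 6560 8-mers with no C on the modified strand, 504 rose and 514 fell (15.5% called, beside 9.97% of all). These included 255 made of A and T only, with 15 rises (5.88%, beside 4.38% of all 8-mers) and 6 falls (2.35%, beside 5.58%). Taken alone, the number of C had little relation to the median difference, which lay between -0.0420 and 0.0541 for 0 to 6 C. The number of G had more, with a median difference of 0.201 without G and -0.454 with 5 G. At a fixed number of G above 0, the number of C did show a relation. With 2 G the median difference was 0.296 for 0 C and -0.0272 for 4 C, and with 4 G it was -0.216 and -0.541. Without G it was 0.223 for 0 C and 0.214 for 4 C. The median difference was 0.128 without a CG, -0.162 with 1 and -0.391 with 2. At the level of single probes, log2 intensity correlated with the number of G on the synthesised strand at r = -0.188 and -0.187 on 5hmC, against -0.0941 and -0.0589 on C. Whether this composition trend has a part in the changes of single sites was not tested.

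Both strands of a site were then compared within arrays, as the Z-score of an 8-mer minus that of its reverse complement. On C neither strand carries a modified base. Across 32230 strand pairs, the Z-scores of both strands correlated at r = 0.191 and 0.169 on the 5hmC arrays, against 0.651 and 0.748 on the C arrays. Where either strand reached a Z-score of 10, the weaker was under 50% of the stronger in 220 of 221 and 273 of 276 pairs on 5hmC (99.5% and 98.9%), against 40 of 135 and 50 of 193 pairs on C (29.6% and 25.9%). The asymmetry was not particular to 5hmC. On the CREB1 5mC array the strands correlated at r = 0.119, and the share was 143 of 145 pairs (98.6%). With CEBPB(V285A) it was 82.9% and 82.2% on 5hmC, against 43.8% and 37.6% on C. In the limma fit of the strand differences, 4991 pairs changed between 5hmC and C (15.5%). With 1 of the 4 arrays left out, 1408 pairs passed without the first 5hmC array, 1529 without the second, 1482 without the first C array and 2159 without the second.

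**Figure D3:**
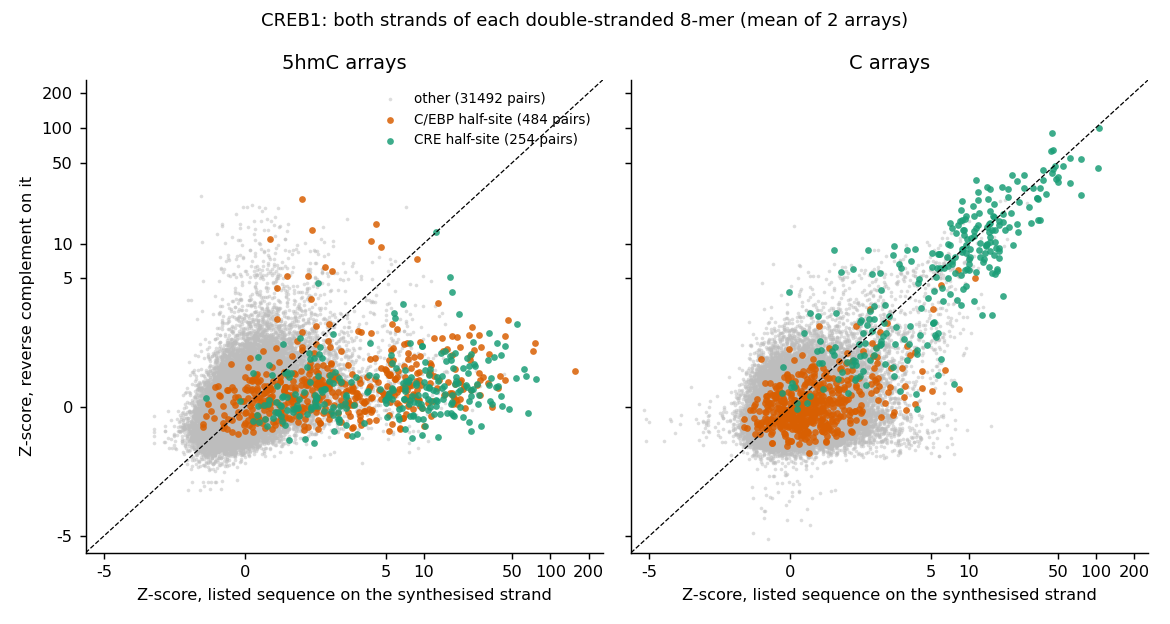
Mean Z-score of an 8-mer (x axis) and of its reverse complement (y axis) for 32230 pairs, on the CREB1 5hmC arrays in the left panel and the CREB1 C arrays in the right one, linear up to 5 and logarithmic beyond. CRE pairs (green, TGACG strand on the x axis) and C/EBP pairs (orange, GCAA strand on the x axis) lie mostly along the x axis on 5hmC, whereas on C the CRE pairs lie along the dashed line of equality.

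In the CRE and C/EBP lists most called pairs changed toward the strand with TGACG or GCAA. The counts below stand beside 15.5% of all pairs called in either direction. Among all 4991 called pairs TGACG was on the gaining strand in 151 and on the losing strand in 4. GCAA was on the gaining strand in 172 and on the losing strand in 120. Of the 65126 8-mers tested, 256 held TGACG and 1279 held GCAA. Called pairs were uneven by alphabetical order of the strands as well. Of the 4991, 1290 changed toward the strand first in the alphabet and 3701 toward the other, a skew whose source was not tested. In 62 pairs with TGACGNNN on 1 strand, the median strand difference toward TGACG was 6.04 on 5hmC and 0.757 on C; the TGACG strand was the higher one in 62 of 62 pairs on 5hmC and in 36 of 62 on C. Of these pairs 36 changed toward the TGACG strand and 1 away from it. In 64 pairs with NNNTGCAA, 21 changed toward the GCAA strand and 6 away, and in 63 pairs with NNNCGCAA 12 changed toward it and 1 away. In 62 pairs with NNNCGTAA, 2 changed toward the GTAA strand and 7 away. Pairs with TGACANNN, which lack the CpG, changed 4 each way. In the CGTAA and TGACA lists the share of called pairs was thus near that of all pairs. The 63 pairs with TGATGNNN, again chosen after their values were seen, had a median strand difference of 3.25 on 5hmC and -0.139 on C; 46 changed toward TGATG and none away.
Among called pairs the largest change was that of CGATGACG over CGTCATCG, whose strand difference was 51.2 and 69.4 on 5hmC, against -12.3 and -23.3 on C, a change of 78.1 ± 4.45 (SE; limma adjusted p = 4.93e-10). On C the CGTCA strand was the stronger on both arrays, and on 5hmC the TGACG strand was. TGACGCAA over TTGCGTCA had strand differences of 68.9 and 81.8 on 5hmC and 4.41 and -2.94 on C (limma adjusted p = 0.00763), a change that missed the threshold without the second C array (70.9, adjusted p = 0.0699) and without the second 5hmC array (68.1, 0.0726). ACGCAATA over TATTGCGT had 65.8 and 80.4 on 5hmC and 0.782 and 1.69 on C (limma adjusted p = 0.00041), and TGTGACGT over ACGTCACA 14.3 and 10.4 on 5hmC and -29.0 and -61.4 on C (limma adjusted p = 7.2e-07). The composite site over its reverse complement differed by 140 and 169 on 5hmC and by -0.751 and 1.52 on C. This pair was not called (change 154 ± 171 SE; limma adjusted p = 0.58), but passed without the mean-variance trend (5.18e-11) and on the asinh scale (2.63e-05). TGACGTAA over TTACGTCA differed by 49.6 and 53.3 on 5hmC and by 21.2 and 24.1 on C, and did not pass (limma adjusted p = 0.563), but did on the asinh scale (0.0048). TATGACGC over GCGTCATA, GTGATGCA over TGCATCAC, ATGCAATA over TATTGCAT, TATGCAAT over ATTGCATA, TGATGACG over CGTCATCA and TGCAATAC over GTATTGCA changed by 30.5 to 49.9, with limma adjusted p of at most 0.000187. In each of these the losing strand had a mean of 1.31 or less on 5hmC.

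Single probes are given next, before any summary over probes. Those printed were chosen as the brightest or dimmest for their site on these same arrays, so their direction is no separate evidence. A probe of the array holds 35 variable bases, and the probes below are given as the synthesised strand with the site in capitals, to show the context in which each site was measured; modified cytosines outside the site are not marked.
composite site, a probe at the top of the scale on 5hmC: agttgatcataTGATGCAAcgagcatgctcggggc
composite site, dimmest probe on the first 5hmC array: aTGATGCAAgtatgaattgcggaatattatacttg
CRE palindrome, a probe at the top of the scale on all 4 arrays: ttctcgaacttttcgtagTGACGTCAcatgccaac
CRE palindrome, dimmest probe on the first 5hmC array: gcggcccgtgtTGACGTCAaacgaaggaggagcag
TACGTCAC, brightest probe on C: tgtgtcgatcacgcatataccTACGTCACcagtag
TGATGTAA, the probe with the highest mean on 5hmC and on C: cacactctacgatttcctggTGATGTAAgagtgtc
In this order, the first composite probe had the highest intensity of these arrays, 65528, on both 5hmC arrays, against 2027 and 2071 on C, and the second had 2817 and 6198 on 5hmC, against 1416 and 1697 on C. The site starts at base 2 from the 5′ end in the dim probe and at base 12 in the bright one. The first CRE probe was at the top of the scale on all 4 arrays, so it can show no difference. The second CRE probe had 1813 and 2597 on 5hmC, against 6462 and 8861 on C. The TACGTCAC probe had 4051 and 4231 on 5hmC, against 41300 and 65528 on C. The TGATGTAA probe, with no modified base inside the site but 8 cytosines on its synthesised strand in all, had 57014 and 63951 on 5hmC, against 7170 and 11974 on C.

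The composite site was brighter on both 5hmC arrays than on both C arrays in 17 of its 17 probes. Their median intensity was 31419 and 44695 on 5hmC, against 1656 and 2074 on C, which is 22.3 and 28.9 times the array median on 5hmC and 1.34 and 1.37 times on C. For its reverse complement, 5 of 18 probes were brighter and 5 dimmer on both 5hmC arrays, and the medians were 1673 and 1747 on 5hmC and 1544 and 1880 on C. The CRE palindrome was dimmer on both 5hmC arrays in 16 of 19 probes and brighter in none, with medians of 6088 and 9789 on 5hmC and 38290 and 36908 on C. The hybrid TGACGCAA was brighter on 5hmC in 17 of 17 probes, and its reverse complement was dimmer in 13 of 18. TACGTCAC was dimmer in 18 of 18 probes, and GTGACGTA in 8 of 16. TGATGTAA was brighter in 13 of 16 and dimmer in none. Of the probes with the composite site, 4 and 6 reached the top of the scale on the 5hmC arrays and none on the C arrays, so their intensities on 5hmC are partly lower limits.

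**Figure D4:**
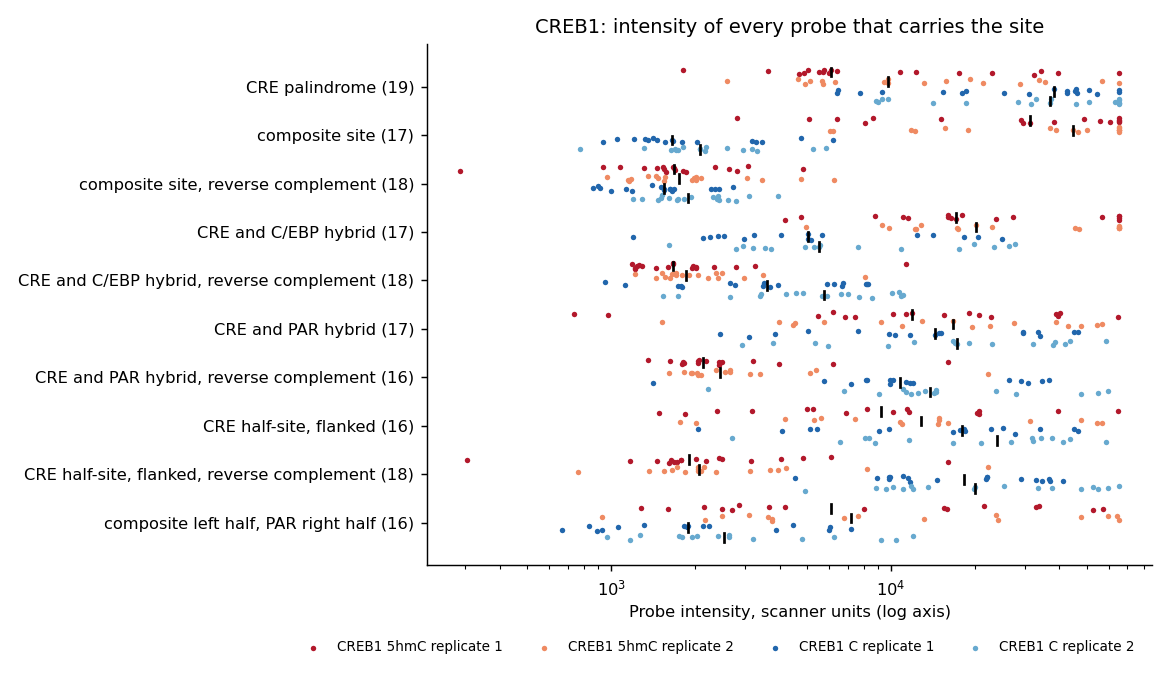
Intensity in scanner units (x axis, logarithmic) of every probe that carries a site, on each of the 2 CREB1 5hmC arrays (red) and the 2 CREB1 C arrays (blue), with the number of probes in brackets and the median as a black bar; the flanked CRE half-site is GTGACGTA. The 17 composite-site probes have medians of 31419 and 44695 on 5hmC and 1656 and 2074 on C, and the 19 CRE-palindrome probes 6088 and 9789 on 5hmC and 38290 and 36908 on C.

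Set beside the single CREB1 5mC array, the CRE palindrome was far below its level on C with both modified forms, and the composite site was higher on 5hmC. The 5mC array had a median probe intensity of 1740 over a local background of 1044.5, a ratio of 1.67. On the 5hmC and C arrays that ratio lay between 3.42 and 5.85, and its part in the comparison with 5mC was not tested. The 5hmC arrays correlated with the 5mC array at r = 0.604 and 0.617 across 8-mers. TGACGTCA measured 19.1 and 38.5 on 5hmC and 22.4 on 5mC (difference 6.42 ± 17.0 SE; limma adjusted p = 0.886, with the lone 5mC array assumed to vary like the other groups). TACGTCAC had means of 2.37 on 5hmC and 4.81 on 5mC. TGATGCAA was higher on 5hmC by 114 ± 12.2 (SE; limma adjusted p = 1.47e-05), at 141 and 171 on 5hmC and 42.4 on 5mC. On the asinh scale that difference did not pass (limma adjusted p = 0.149). CGATGACG and TATGACGC were also higher on 5hmC, with means of 61.8 and 54.0, against 16.1 and 15.1 on 5mC (limma adjusted p = 0.00137 and 0.00604), and did not pass on the asinh scale (0.278 and 0.24). In all, 1439 8-mers passed between 5hmC and 5mC (2.21%), 894 higher and 545 lower on 5hmC. With the first or the second 5hmC array left out, 348 and 333 passed. The largest falls were in sequences with CGCAA: CTACGCAA had a mean of 34.7 on 5hmC and 104 on 5mC (limma adjusted p = 0.0189), a call lost without the first 5hmC array (-61.1, adjusted p = 0.181) or the second (-78.2, 0.0601). CCCGCAAT had means of 4.65 on 5hmC and 25.8 on 5mC (limma adjusted p = 7.69e-07). The 64 8-mers ending in CGCAA had medians of 1.70 on 5hmC and 6.05 on 5mC, and the 64 ending in TGCAA 3.24 on 5hmC and 3.13 on 5mC.

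The effect of 5hmC was then compared between CREB1 and each mutant at the same sites. The A297V substitution changes a residue of the CREB1 basic region, and V285A one of the C/EBPβ basic region. The CREB1(A297V) arrays held fewer high values. Strand pairs with either strand at a Z-score of 10 numbered 14 to 55 on 5hmC and 16 and 30 on C. With CREB1 they numbered 221 and 276 on 5hmC and 135 and 193 on C. The CREB1(A297V) Z-scores on 5hmC correlated with probe intensities at r of 0.603 to 0.799. The part of this in the differences between proteins was not tested. TGATGCAA had means of 156 on 5hmC and 2.89 on C with CREB1, of 2.51 on 5hmC and 2.37 on C with CREB1(A297V), and of 97.0 on 5hmC and 44.8 on C with CEBPB(V285A). The effect of 5hmC on it was larger in CREB1 than in CREB1(A297V) by 153 ± 13.2 (SE; limma adjusted p = 1.58e-06) and than in CEBPB(V285A) by 101 ± 14.1 (SE; limma adjusted p = 0.000195). TGACGTCA differed between 5hmC and C by -166 in CREB1, by -22.6 in CREB1(A297V), where its mean was 0.541 on 5hmC and 23.1 on C, and by -146 in CEBPB(V285A). The limma fit called the effect in CREB1 different from that in CREB1(A297V) (adjusted p = 0.000113), but not on the asinh scale, where the sign turned (1.40, adjusted p = 0.561). It did not call it different from that in CEBPB(V285A) (difference -20.2 ± 19.6 SE, limma adjusted p = 0.75).
The effect was called different from that in CREB1(A297V) for 499 8-mers (0.766%), 348 with a more positive and 151 with a more negative effect in CREB1, and from that in CEBPB(V285A) for 1424 (2.19%), 1199 more positive and 225 more negative. Z-scores are not scaled between proteins, and on the asinh scale 109 and 73 8-mers passed. Of the arrays left out in turn, the count against CREB1(A297V) was 318 without the first and 262 without the second CREB1 5hmC array, 299 without the second CREB1 C array, and 307 without the first and 263 without the second CREB1(A297V) C array. The count against CEBPB(V285A) was 828 without the first and 655 without the second CREB1 5hmC array, 611 without the first CREB1 C array and 683 without the first CEBPB(V285A) C array. TTACGTCA fell by 50.7 in CREB1, whereas its difference in CEBPB(V285A), where its mean was 6.30 on 5hmC and 167 on C, was -161 (difference of effects 110 ± 16.5 SE, limma adjusted p = 0.000397, 0.741 on the asinh scale).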

How the data were processed

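Scores are those of the deposited matrix: a Z-score per 8-mer and array, made by the authors from probe signals by a method not given in the sources used here. Intensities were deposited per spot as the median signal and median local background, per the file headers, without background subtraction. Each 8-mer was named by its complement, which gives the synthesised strand. The 409 8-mers that no probe carries were left out, and 20 tested 8-mers are listed at 0 in every array. An 8-mer has a median of 17 probes and at most 41, and 615 tested 8-mers have under 8.

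Z-scores were fitted with limma 3.58.1 in R 4.3.3, with 1 coefficient for each of 10 groups over all 21 arrays (11 residual degrees of freedom); eBayes ran with a trend in the variance. All p-values are two-sided and Benjamini-Hochberg adjusted over all 8-mers (or all 32230 strand pairs), and calls were made at 0.05. Differences between proteins were interaction contrasts of the same fit. Other steps used Python 3.11.15 with pandas 2.3.3. The fit was also run on simulated data with independent noise for each 8-mer and the same spread in all groups. That setting leaves out the probes that real 8-mers share, and no result above rests on it. The alternatives tried were the asinh of the Z-scores, Z-scores recomputed from the intensities, normexp background correction (offset 50), quantile normalization, a minimum of 8 probes, no trend, the compared arrays alone, the replicate number as a block, and each array left out in turn; leaving out arrays of other groups was chosen after seeing the data.

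Named 8-mers were 9 combinations of half-sites, the composite site and its reverse complement, up to 10 called rises and falls, the 10 highest on each form, up to 5 strand pairs each way and up to 3 8-mers each way for other contrasts. An 8-mer was skipped if it overlapped one already named in the same part or had under 8 probes. The comparison, the sites and the lists were chosen with earlier results of these data known. The TGATG lists, the splits by flanking base and the examples in them were chosen after their values were seen.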

Additional observations from a re-analysis of the deposited data

Results flagged for a closer look

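The effect of 5hmC (5hmC minus C, in Z-score units) differed between CREB1 and each mutant by an interaction contrast of the limma fit, for the 8-mers named here. Against CREB1(A297V), the effect on TGATGCAA was more positive in CREB1 by 152.96, at 153 in CREB1 and 0.141 in CREB1(A297V). CGATGACG differed by 43.544 (effects of 40.1 and -3.40, CREB1 first) and ATGCAATA by 42.167 (43.8 and 1.62). Both lost the call without the second CREB1(A297V) C array, at limma adjusted p of 0.0589 and 0.0511. The effect was more negative in CREB1 for TGACGTCA by -143.68 (-166 and -22.6), for TACGTCAC by -89.23 (-97.3 and -8.05) and for CACGTCAT by -42.161 (-44.8 and -2.62).

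Against CEBPB(V285A), the effect was more positive in CREB1 for TTACGTAA by 111.59 (-11.7 in CREB1 and -123 in CEBPB(V285A)), for TTACGTCA by 110.15 (-50.7 and -161) and for TGATGCAA by 100.94 (153 and 52.2). The same held for TGACGCAA by 64.165 (57.8 and -6.36), for TTGCGTCA by 65.557 (-16.8 and -82.3) and for TTGCATCA by 10.525 (-1.12 and -11.6). It was more negative in CREB1 for TTATGCAA by -119.26 (27.3 and 147), for TTATGTAA by -111.83 (8.21 and 120) and for ATAATAGT by -25.382 (0.412 and 25.8). The CEBPB(V285A) 5hmC arrays differed widely on the 3 last, with SDs of 72.4, 66.2 and 18.9 (n = 2). TTATGCAA, TTATGTAA, ATAATAGT and TGACGCAA lost the call without any 1 of the 4 CREB1 arrays. ATAATAGT also lost it without either CEBPB(V285A) C array, and TGACGCAA without the first. On the asinh scale the named differences against CREB1(A297V) kept their call only for TGATGCAA and ATGCAATA, and those against CEBPB(V285A) only for TGATGCAA.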

How the results depend on the processing

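The count of 6492 8-mers called for 5hmC against C was 24575 (9911 higher and 14664 lower) after normexp, 24640 with the 4 arrays alone, which leaves 2 residual degrees of freedom, and 11229 with the replicate number as a block. It was 1415 to 2044 with 1 of the 4 arrays left out, and 5509 to 8561 with 1 array of another group left out. Under the other 5 alternatives it lay between 5685 and 7550. The count of 4991 strand pairs was 12790 after normexp, 13793 with the 4 arrays alone and 7894 with the replicate block, 1408 to 2159 with 1 of the 4 arrays left out and 4369 to 6377 with another array left out. Against CREB1(A297V) the count of 499 was 109 with asinh, 1567 with the replicate block, 1112 with the CREB1(A297V) 5hmC arrays that share an array number with its C arrays, and 262 to 691 with 1 array left out. Against CEBPB(V285A) the count of 1424 was 73 with asinh, 2376 with the replicate block and 611 to 1392 with 1 array left out. Against 5mC the count of 1439 was 643 with asinh, 2181 with recomputed Z-scores, 4423 with the replicate block and 333 to 348 with a 5hmC array left out; the lone 5mC array could not be left out. The cause of these shifts was not tested, beyond the fewer arrays in the fits that leave some out. Replicate numbers were taken as names only: replicate 1 minus replicate 2 correlated between CREB1 C and CREB1 5hmC at r = 0.0772. The block ended the calls of ATTACGTA (limma adjusted p = 0.0635) and, against CEBPB(V285A), of TGACGCAA (0.0839), and of no other named 8-mer or strand pair.

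Of the 37 named 8-mers, the sign of CGTGACGC, 2.62 as reported, turned to -1.78 with recomputed Z-scores and -0.271 with normexp, and it lay between -5.68 and 10.9 with 1 of the 4 arrays left out. TGGTGACG lay between -0.893 and 7.84 with 1 left out. Between proteins, TGACGTCA against CREB1(A297V) turned to 1.40 and TTATGCAA against CEBPB(V285A) to 1.98 with asinh. Asinh kept direction and side of the threshold in 27 of the 37, quantile normalization in 33, normexp in 34, recomputed Z-scores in 34, the 4 arrays alone in 27, the replicate block in 36, and no trend and the probe minimum in 37 each. Probes at the top of the scale and 8-mers with few probes limit the largest and the rarest values.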
